A study of Mus musculus with 39 samples.

Results

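Nek10, Gpr17, Kirrel3, Hsf5, Sarm1, Nup210l, Chd2, Pcf11 and Slc13a2os are 9 genes of the mouse duodenum whose RNA was higher after leptin than after saline was given into the brain of mice drinking water. They were selected on that rise, by symbol, from a table of 16358 genes, so their levels in the water libraries are the measured values that chose them. The contrast that chose them, leptin against saline in 27 water libraries, called 45 of 16356 tested genes higher (0.275%) and 6 lower (0.0367%) at an adjusted p of 0.05. By p among those 45, Gpr17 ranked 3, Sarm1 5, Nek10 7, Chd2 10, Nup210l 11, Pcf11 12, Kirrel3 18, Hsf5 20 and Slc13a2os 40. At the edge of that call, Uty was just inside (log2 fold change 0.20, SE 0.05, adjusted p = 0.0491) and Gstm5 just outside (0.30, SE 0.07, adjusted p = 0.0507), both by edgeR's quasi-likelihood test. The rise on water is therefore described here and not tested. Tests were made on other contrasts: the response to leptin in mice given antibiotics and the effect of the antibiotics over both injections. Relations between the genes within groups were tested as well. The call of the genes depended on the spread within the water libraries. That spread enters the edgeR fits of set MT and the relations, so these are not fully independent of the choice.

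All mice were male wild-type C57BL/6 animals aged 8 weeks with a cannula in a lateral ventricle of the brain, and all had been deprived of food for 2 h. The duodenum was taken 2 h after the injection, 3 days after the cannula was placed, and sequenced as whole tissue. Leptin-water mice received 3 µg of leptin through the cannula and drank water, and Saline-water mice received saline and drank water. Leptin-antibiotic mice received the same leptin after 48 h of ampicillin (1 g/L) and neomycin (0.5 g/L) in the drinking water, and Saline-antibiotic mice received saline after the same 48 h. Library names in the labels begin with M or MT, and these 2 kinds are named here as sets. There were 7 Leptin-water and 8 Saline-water libraries in set M. In set MT each of the 4 groups had 6 libraries, so antibiotics were compared with water only within set MT. The labels number the replicates but do not say that each is a separate animal, so p-values measure the spread between these samples, which may be technical.

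Leptin is a hormone of fat cells that reports energy stores to the brain, and the hypothalamus acts on the gut through autonomic nerves. The 9 genes share no single pathway. Gpr17 is a G protein-coupled receptor related to the P2Y and cysteinyl leukotriene receptors and is best known from the oligodendrocyte lineage. Nek10 is a NIMA-related kinase, known in human cells from motile cilia and the response to DNA damage. Kirrel3 is an adhesion molecule of the nephrin-like immunoglobulin family, studied mainly at synapses, and Sarm1 is a TIR-domain enzyme that cleaves NAD in degenerating axons. Hsf5 is a heat shock factor best known from male germ cells, and Nup210l is a testis relative of the pore membrane nucleoporin Nup210. Chd2 is a chromodomain helicase that remodels nucleosomes, and Pcf11 acts in cleavage of pre-mRNA and termination of transcription. Slc13a2os is a noncoding RNA transcribed opposite to Slc13a2, the dicarboxylate and citrate transporter of the brush border.

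Total counts per library ranged from 30207536 to 67870777 (median 48282125), and all 9 genes passed the filter on low counts in every fit, the lowest count of any of them in any library being 57. Of the 109 library pairs from one set and group, 0 were identical (chi-square per degree of freedom 19.7 to 201). Enterocyte markers were in the table for 16 of 16, and their mean lay between 10.01 and 11.07 log2 CPM in every library. This list marks enterocytes and cannot tell the duodenum from other parts of the small intestine. Of the exocrine pancreas markers, 25 of 29 were in the table, and 6 libraries stood apart on them, with means of 5.03 to 5.95 log2 CPM against at most 3.40 in the other libraries. These were Leptin-water 6 and 10, Leptin-antibiotic 3, and Saline-antibiotic 1, 2 and 5. Results of the 9 genes that rest on them are given with and without them.

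On the GRCm38 assembly with the GENCODE vM21 annotation, 3 of the 9 genes lie on chromosome 11 and 2 on chromosome 7. Slc13a2os (chr11:78394485-78405657, plus strand, annotated as antisense) and Sarm1 (chr11:78472330-78497754, minus strand) are 66673 bases apart with 1 measured gene, Slc46a1, between them. Hsf5 (chr11:87617164-87659542, plus strand) lies further along. Chd2 (chr7:73426638-73541830) and Pcf11 (chr7:92643543-92669934) are on the minus strand. Nek10 (chr14:14803415-15012059), Kirrel3 (chr9:34485894-35036716) and Nup210l (chr3:90104132-90212048) are on the plus strand, and Gpr17 (chr18:31942997-31949636) is on the minus strand. Slc13a2os shares 632 exonic bases with Slc13a2 on the opposite strand (17.4% of its exons), Gpr17 shares 188 with Lims2 (3.62%), and Chd2 shares 2628 on the same strand with 1810026B05Rik (18.4%). The libraries mark strand, but the strand setting of the counting is not given in the sources used here. Reads from overlapping exons may therefore have been counted for either gene or for neither.

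Per length, the genes were unequal in level. Median RPKM over the 39 libraries, with annotated exon length, was 11.5 for Pcf11, 9.79 for Chd2, 3.93 for Gpr17, 3.50 for Slc13a2os, 1.54 for Nek10, 1.26 for Hsf5, 0.654 for Kirrel3, 0.620 for Sarm1 and 0.594 for Nup210l. The nuclear genes Pcf11 and Chd2 thus had the most RNA per length, and Kirrel3, Sarm1 and Nup210l the least. Slc13a2 itself had a median of 15.8 RPKM. Of the 9 genes, 7 were longer than the median measured gene (22459 bases), and Kirrel3 spanned 550823 bases.

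Start-site sequences, taken from RefSeq on GRCm38.p6 from 250 bases before to 50 after the start and printed 5′ to 3′ on the strand of the gene, were found for 5 of the 9 genes. Shown are 4 windows: Nek10 and Hsf5 because they had the highest r within groups of any 2 of the 9 genes that have a window, and Slc13a2os with Slc13a2 because these lie opposite each other. Capitals mark GTAAACA, the core bound by FOXO factors, in either orientation.
Nek10: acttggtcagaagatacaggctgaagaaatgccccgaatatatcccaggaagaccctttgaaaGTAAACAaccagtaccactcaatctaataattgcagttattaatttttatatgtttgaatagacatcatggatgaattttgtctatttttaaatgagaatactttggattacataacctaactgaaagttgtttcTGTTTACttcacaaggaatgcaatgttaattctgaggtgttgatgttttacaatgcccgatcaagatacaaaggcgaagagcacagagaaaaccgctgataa
Hsf5: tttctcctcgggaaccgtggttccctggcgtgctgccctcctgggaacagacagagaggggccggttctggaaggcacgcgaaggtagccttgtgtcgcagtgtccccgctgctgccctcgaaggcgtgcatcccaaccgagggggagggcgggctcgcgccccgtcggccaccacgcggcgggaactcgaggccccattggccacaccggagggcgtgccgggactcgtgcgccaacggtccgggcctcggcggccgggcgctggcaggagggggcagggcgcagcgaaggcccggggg
Slc13a2os: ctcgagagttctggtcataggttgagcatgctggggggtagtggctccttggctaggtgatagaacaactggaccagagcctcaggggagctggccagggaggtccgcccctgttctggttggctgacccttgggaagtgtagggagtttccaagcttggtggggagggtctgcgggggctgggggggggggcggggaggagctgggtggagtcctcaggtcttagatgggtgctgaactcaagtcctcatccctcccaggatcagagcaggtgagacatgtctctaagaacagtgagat
Slc13a2: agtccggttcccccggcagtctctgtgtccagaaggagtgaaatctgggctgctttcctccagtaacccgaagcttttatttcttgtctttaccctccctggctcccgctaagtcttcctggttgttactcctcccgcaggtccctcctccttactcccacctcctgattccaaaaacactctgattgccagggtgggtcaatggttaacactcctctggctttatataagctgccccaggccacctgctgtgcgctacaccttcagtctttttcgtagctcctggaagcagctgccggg
These windows are chr14:14820565-14820864 (plus strand) for Nek10, chr11:87616914-87617213 (plus) for Hsf5, chr11:78394235-78394534 (plus) for Slc13a2os and chr11:78422185-78422484 (minus) for Slc13a2. The Nek10 start in RefSeq falls inside the longer gene of the GENCODE annotation. Its window was 34.7% G and C, below all but 0.323% of 12683 mouse windows (median 60.0%), whereas that of Hsf5 was 73.3%. Each motif named was searched on both strands. GTAAACA was in 2.68% of all windows, and of the 5 genes with a window it was in Nek10 only, at 2 places. No window of the 5 held TTCNNNGAA (STAT, in 7.02% of all windows), the palindrome of the glucocorticoid receptor (0.402%), TGACGTCA (CREB, 3.0%), the triple repeat of the heat shock element (0.449%) or CACGTG (E-box, 9.51%). Pcf11 and Sarm1 were the other genes with a window. These letters describe the windows alone and say nothing of which factor acts there.

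Levels from here on are CPM, the counts of a gene relative to the library total, scaled by TMM factors, which compare libraries within a gene. In bulk tissue, fewer cells of a type and less RNA per cell cannot be told apart. On water, the kinase Nek10 had the highest log2 fold change of the 9 genes over both sets, although its ranges overlapped in set M. In set M its lowest, median and highest levels were 17.8, 23.2 and 46.4 CPM in Leptin-water libraries, against 6.14, 12.9 and 28.5 CPM in Saline-water libraries. In set MT they were 20.3, 31.6 and 34.5 CPM in Leptin-water libraries, against 3.95, 8.44 and 17.6 CPM in Saline-water libraries. The groups overlapped in set M, where Saline-water 2 and 5, at 18.2 and 28.5 CPM, were above the lowest Leptin-water library, and did not overlap in set MT. The log2 fold change was 1.02 (SE 0.29) in set M and 1.56 (SE 0.29) in set MT, or 1.26 (SE 0.23) over both.

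The receptor gene Gpr17 ranged from 20.4 to 53.1 CPM (median 31.7) in Leptin-water libraries of set M, against 13.2 to 27 CPM (median 20.3) in Saline-water libraries. In set MT it ranged from 23.4 to 30.3 CPM (median 26.2) in Leptin-water libraries, against 8.30 to 21.5 CPM (median 11.2) in Saline-water libraries. Again the groups overlapped in set M, where 5 of 7 Leptin-water libraries were above every Saline-water library, and were apart in set MT. Leptin over saline was 0.77 (SE 0.19) on the log2 scale in set M and 0.96 (SE 0.20) in set MT. Kirrel3, the nephrin-like adhesion molecule, ranged from 4.02 to 13.5 CPM (median 8.14) in Leptin-water and from 1.70 to 6.67 CPM (median 4.20) in Saline-water libraries of set M. Its range in set MT was 4.38 to 8.27 CPM (median 6.39) in Leptin-water and 1.77 to 5.40 CPM (median 3.48) in Saline-water libraries. Kirrel3 thus overlapped between the injections in both sets, with log2 fold changes of 0.99 (SE 0.27) in set M and 0.84 (SE 0.23) in set MT.

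Sarm1, the TIR-domain enzyme, ranged from 3.67 to 9.35 CPM (median 5.60) in Leptin-water and from 2.80 to 4.64 CPM (median 3.44) in Saline-water libraries of set M. In set MT the ranges were closer, at 3.35 to 5.23 CPM (median 4.28) in Leptin-water and 2.48 to 3.55 CPM (median 3.01) in Saline-water libraries. The log2 fold changes were 0.72 (SE 0.16) in set M and 0.50 (SE 0.13) in set MT; Leptin-water 7 was the library at 9.35 CPM. Over both sets, Sarm1 had a log2 fold change of 0.63, which was 0.54 without Leptin-water 7. That library also held the highest set M levels of Kirrel3 (13.5 CPM), Hsf5 (10.9 CPM) and Chd2 (202 CPM).

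Among the genes of the nucleus, Hsf5 had 4.78, 6.27 and 10.9 CPM as lowest, median and highest level in Leptin-water libraries of set M, against 2.75, 4.29 and 7.17 CPM in Saline-water libraries. In set MT it had 5.39, 6.63 and 9.57 CPM in Leptin-water libraries, against 2.48, 4.00 and 5.87 CPM in Saline-water libraries. The injections overlapped in both sets, in set MT through few libraries, since 5 of 6 Leptin-water libraries were above every Saline-water one. Nup210l, the nuclear pore relative, ranged from 3.09 to 5.91 CPM in Leptin-water and from 2.51 to 3.98 CPM in Saline-water libraries of set M. In set MT it ranged from 3.75 to 5.11 CPM in Leptin-water and from 2.84 to 3.62 CPM in Saline-water libraries, without overlap. Log2 fold changes were 0.66 (SE 0.20) and 0.78 (SE 0.20) for Hsf5 and 0.50 (SE 0.14) and 0.43 (SE 0.11) for Nup210l, in set M and set MT in that order.

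Chd2 and Pcf11, the genes of highest level, had the smallest shifts. Chd2 lay at 146 to 202 CPM in Leptin-water libraries and 109 to 168 CPM in Saline-water libraries of set M, and at 146 to 174 CPM against 122 to 140 CPM in set MT. Pcf11 lay at 87.0 to 100 CPM in Leptin-water libraries and 67.1 to 89.3 CPM in Saline-water libraries of set M. In set MT Pcf11 lay at 94.7 to 115 CPM in Leptin-water and 83.0 to 94.7 CPM in Saline-water libraries, a gap narrower than the rounding. The log2 fold changes over both sets were 0.29 (SE 0.06) for Chd2 and 0.20 (SE 0.04) for Pcf11, small shifts beside a narrow spread.

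For Slc13a2os, the antisense RNA, the injections were apart in set M and overlapped in set MT. In set M it ranged from 12.4 to 19.4 CPM (median 15.4) in Leptin-water libraries, against 7.68 to 11.6 CPM (median 10.0) in Saline-water libraries. In set MT it ranged from 6.91 to 21.4 CPM (median 13.7) in Leptin-water libraries, against 3.78 to 14.4 CPM (median 7.81) in Saline-water libraries, and 2 of 6 Leptin-water libraries were above every Saline-water one. The log2 fold change was nearly the same in both sets, 0.67 (SE 0.10) in set M and 0.70 (SE 0.30) in set MT, with a wider error in set MT. Its partner Slc13a2 had a mean of 43.1 ± 14.6 CPM in 13 Leptin-water and 30.7 ± 7.85 CPM in 14 Saline-water libraries (SD), a log2 fold change of 0.48 (SE 0.16).

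Every Leptin-water library was above every Saline-water library for 1 of the 9 genes in set M, Slc13a2os, where 22 of 16358 genes (0.134%) were so ordered. In set MT this held for 5 of the 9 (Nek10, Gpr17, Nup210l, Chd2 and Pcf11), where 55 of 16358 genes (0.336%) were so ordered. Because the water libraries chose the 9 genes, these counts are a description. A difference in the leptin effect between the sets was not tested, since the fit that chose the genes counts such a difference as residual spread.

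**Figure D1:**
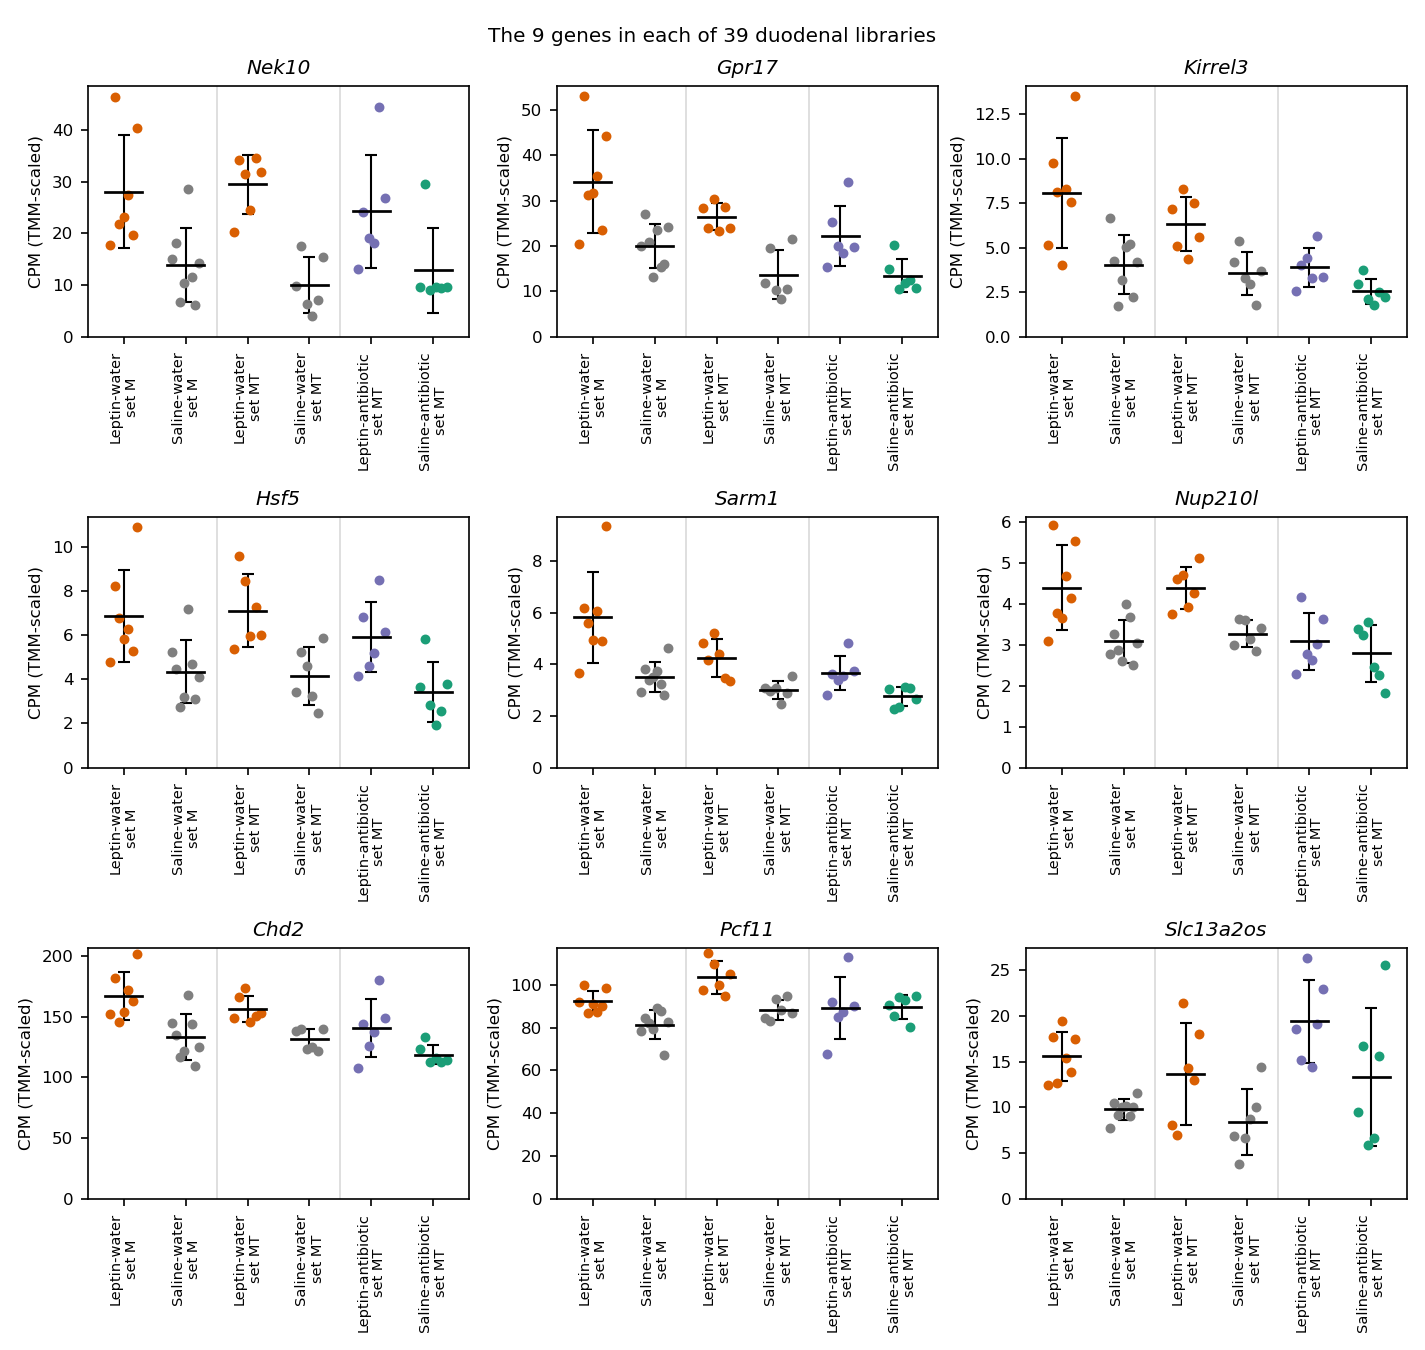
Level of each of the 9 genes in each library, in TMM-scaled CPM on linear axes starting at 0. Points are libraries, the horizontal bar is the group mean and the whiskers are 1 SD, in order Leptin-water and Saline-water of set M, the same of set MT, then Leptin-antibiotic and Saline-antibiotic. Saline-antibiotic 6 stands at 29.6 CPM for Nek10 above the other 5 libraries of its group.

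In mice on antibiotics, leptin was compared with saline between libraries that had no part in choosing the genes. The spread, however, was estimated from all 24 libraries of set MT, including the water libraries that helped to choose them. None of the 9 passed an adjusted p of 0.05 in edgeR's quasi-likelihood test, in which 75 of 16340 genes (0.459%) were called higher and 9 (0.0551%) lower. Of the 9, 6 had an unadjusted p under 0.05 with a higher level after leptin, against 10.0% of all genes. Most of the 8 protein-coding genes varied together within groups, as given below, so such counts are not of separate observations. Fitted on the 12 antibiotic libraries alone, edgeR called 61 genes and 0 of the 9. In that fit 6 of the 9 had an unadjusted p under 0.05, as did 2957 of all genes in either direction. No gene of the 9 had every Leptin-antibiotic library above every Saline-antibiotic library, an order found for 261 of 16358 genes (1.60%). The log2 fold change was above 0 for 8 of the 9, with a median of 0.556, whereas over all genes 46.4% were above 0 and the median was −0.017. Of the other 36 genes called higher with leptin on water, 34 were above 0 on antibiotic, with a median of 0.361, and 4 were called.

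Nek10 had 44.4, 26.8, 13.1, 24.1, 19.1 and 18.2 CPM in Leptin-antibiotic libraries 1 to 6, against 9.06, 9.57, 9.34, 9.61, 9.60 and 29.6 CPM in Saline-antibiotic libraries 1 to 6. All 6 Leptin-antibiotic libraries were above 5 of the Saline-antibiotic libraries, and 1 was above Saline-antibiotic 6. The log2 fold change was 0.93 (SE 0.34, adjusted p = 0.172), and an exact two-sided permutation test of log2 CPM over the 12 libraries gave p = 0.0346. Without Saline-antibiotic 6 it was 1.37 (adjusted p = 0.0283 by edgeR), and without Leptin-antibiotic 1 it was 0.66.

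Gpr17 had 34.2, 19.8, 15.3, 25.2, 20.1 and 18.5 CPM in Leptin-antibiotic libraries, against 10.6, 11.8, 12.4, 10.8, 14.9 and 20.3 CPM in Saline-antibiotic libraries. Saline-antibiotic 6 was again the highest of its group, and the other 5 were below every Leptin-antibiotic library. The log2 fold change was 0.72 (SE 0.21, adjusted p = 0.102; exact permutation p = 0.0130), and 0.88 without Saline-antibiotic 6 (adjusted p = 0.0423 by edgeR). With all libraries Gpr17 was called by DESeq2 (adjusted p = 0.0219), the only one of the 9 that was. DESeq2 gave no adjusted p for Kirrel3, Hsf5, Sarm1 and Nup210l, so these could not be called. The unadjusted DESeq2 p was 0.000605 for Hsf5, beside 0.000474 for Gpr17.

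For Hsf5, Leptin-antibiotic libraries 1 to 6 had 8.48, 6.15, 4.16, 6.83, 4.62 and 5.20 CPM, against 2.82, 1.91, 2.57, 3.77, 3.66 and 5.82 CPM in Saline-antibiotic libraries. The pattern of libraries was that of Nek10 and Gpr17, with Leptin-antibiotic 1 and Saline-antibiotic 6 highest in their groups. For Hsf5 the log2 fold change was 0.79 (SE 0.24; adjusted p = 0.104; exact permutation p = 0.0152), beside 0.78 on water in set MT. Without Saline-antibiotic 6 it was 1.02 (adjusted p = 0.0300 by edgeR). Leaving out that library was the setting in which 3 of the 9 genes were called, and 182 genes in all.

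Kirrel3 had 5.67, 3.33, 2.54, 4.02, 4.44 and 3.30 CPM in Leptin-antibiotic libraries and 2.09, 1.78, 2.52, 2.23, 2.96 and 3.74 CPM in Saline-antibiotic libraries, and the log2 fold change was 0.61 (SE 0.23; adjusted p = 0.184; exact permutation p = 0.0238). Sarm1 had 4.81, 3.74, 2.80, 3.62, 3.41 and 3.55 CPM in Leptin-antibiotic libraries and 2.34, 3.13, 3.07, 2.65, 3.05 and 2.27 CPM in Saline-antibiotic libraries. For Sarm1, 5 of 6 Leptin-antibiotic libraries were above every Saline-antibiotic library, and Saline-antibiotic 6 was here the lowest of its group. The log2 fold change of Sarm1 was 0.42 (SE 0.13, adjusted p = 0.129; exact permutation p = 0.0130).

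Chd2 ranged from 108 to 180 CPM (median 140) in Leptin-antibiotic libraries and from 113 to 133 CPM (median 115) in Saline-antibiotic libraries, and the log2 fold change was 0.25 (SE 0.08; adjusted p = 0.142; exact permutation p = 0.0541). Its fold change in set MT on water was the same, 0.25, but Leptin-antibiotic 3, at 108 CPM, was below every Saline-antibiotic library. Slc13a2os ranged from 14.4 to 26.3 CPM (median 18.8) in Leptin-antibiotic and from 5.89 to 25.6 CPM (median 12.5) in Saline-antibiotic libraries, and the log2 fold change was 0.56 (SE 0.33; adjusted p = 0.382; exact permutation p = 0.0931). Saline-antibiotic 1, 2 and 5, which were below every Leptin-antibiotic library for Slc13a2os, were the 3 of that group high in pancreas markers.

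Nup210l and Pcf11 had the smallest fold changes of the 9 on antibiotic. For Nup210l the range was 2.28 to 4.17 CPM in Leptin-antibiotic libraries and 1.82 to 3.56 CPM in Saline-antibiotic libraries, with a log2 fold change of 0.15 and a 95% interval of −0.16 to 0.45. For Pcf11 it was 67.6 to 113 CPM in Leptin-antibiotic libraries and 80.4 to 95.1 CPM in Saline-antibiotic libraries, with a log2 fold change of 0.00 and an interval of −0.16 to 0.15. On water in set MT, where the genes were chosen, the values were 0.43 for Nup210l and 0.23 for Pcf11. Whether the leptin effect differed between water and antibiotic was not tested for any of the 9, because the water libraries chose them.

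Exocrine pancreas markers were at 1.10 ± 2.72 log2 CPM in Leptin-antibiotic libraries and 2.63 ± 3.26 in Saline-antibiotic libraries (SD, n = 6 each), and 22 of 25 were lower after leptin by fold change, none called. Enterocyte markers were at 10.82 ± 0.20 log2 CPM in Leptin-antibiotic libraries and 10.46 ± 0.28 in Saline-antibiotic libraries, and 15 of 16 had a fold change above 0, none called. Enteroendocrine markers were above 0 in 13 of 15 (median 0.25), goblet in 5 of 7 (0.38), tuft in 5 of 8 (0.08). Immune markers were so in 6 of 14 (−0.05), fibroblast in 4 of 10 (−0.03), enteric neuron and glia in 5 of 18 (−0.17). Stem and crypt markers were so in 1 of 12 (−0.25), smooth muscle in 1 of 14 (−0.14). For stomach and Brunner gland it was 3 of 12 (−0.07), for Paneth 0 of 9 (−0.21). None of these markers was called. Without the pancreas-high libraries, the log2 fold changes on antibiotic were 0.71 for Nek10, 0.70 for Gpr17, 0.62 for Hsf5, 0.54 for Kirrel3, 0.53 for Sarm1, 0.40 for Nup210l, 0.30 for Chd2 and 0.11 for Pcf11. That of Slc13a2os was 0.03, against 0.56 with them. In that smaller comparison edgeR called 0 of all genes, with 1331 at an unadjusted p under 0.05. The part of cell types other than pancreas in these values was not tested.

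**Figure D2:**
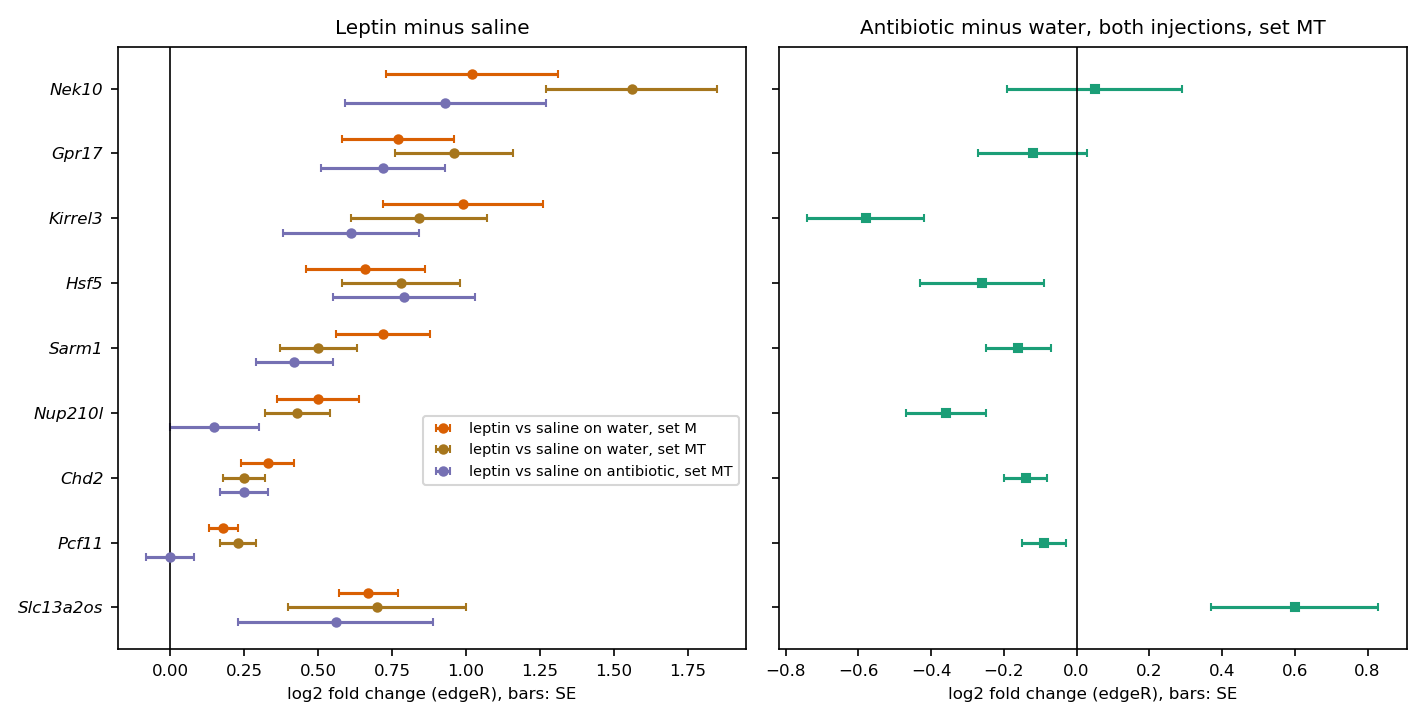
Log2 fold changes from edgeR for the 9 genes, with bars of 1 SE: left, leptin minus saline in water libraries of set M, in those of set MT, and on antibiotic; right, antibiotic minus water over both injections in set MT. The water values chose the genes. On antibiotic the fold changes run from 0.93 for Nek10 to 0.00 for Pcf11.

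With antibiotics, compared with water over both injections in set MT, 2 of the 9 genes fell and none rose by the test. Over all genes this test called 692 of 16340 higher (4.24%) and 362 lower (2.22%). Kirrel3 averaged 3.22 ± 1.12 CPM in the 12 antibiotic libraries and 4.95 ± 1.97 CPM in the 12 water libraries (SD), and 11 of 12 antibiotic libraries were below the water median. On the log2 scale it fell by 0.58 (SE 0.16, adjusted p = 0.0323 by edgeR). Nup210l averaged 2.93 ± 0.687 CPM in antibiotic and 3.83 ± 0.716 CPM in water libraries (SD, n = 12 each), and the log2 fold change was −0.36 (SE 0.11; adjusted p = 0.0468 by edgeR). For Nup210l, 6 of 12 antibiotic libraries were below every water library.

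Cell type marker lists were followed in the same comparison. Exocrine pancreas markers had a log2 fold change above 0 in 24 of 25 (median 2.03, 1 called higher), enterocyte markers in 15 of 16 (median 0.24, 5 called higher), smooth muscle markers in 13 of 14 (median 0.13, 2 called higher) and stomach and Brunner gland markers in 11 of 12 (median 0.46, none called). Immune markers were above 0 in 1 of 14 (median −0.22, 2 called lower). Their part in the values of the 9 genes was not tested beyond the pancreas settings given next.

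The calls of Kirrel3 and Nup210l were close to the threshold. Leaving out each of the 24 libraries in turn by edgeR, Kirrel3 was called 15 times (log2 fold change −0.66 to −0.51, adjusted p 0.0106 to 0.0637) and Nup210l 11 times (−0.41 to −0.32, adjusted p 0.0229 to 0.0777). Kirrel3 was not called without Leptin-antibiotic 2 or 3, Saline-antibiotic 2 or 4, Leptin-water 9, 11 or 13, or Saline-water 11 or 12. Nup210l was not called without Leptin-antibiotic 1, 3, 5 or 6, Saline-antibiotic 2, 3 or 4, Leptin-water 8, 11 or 13, or Saline-water 10, 12 or 13. With the pancreas marker level as a covariate, the log2 fold change was −0.48 for Kirrel3 (adjusted p = 0.0556 by edgeR) and −0.35 for Nup210l (0.0731). Without the pancreas-high libraries it was −0.47 for Kirrel3 (adjusted p = 0.111) and −0.40 for Nup210l (0.0391). Over these settings the direction of both was lower on antibiotics.

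Slc13a2os went the other way in value. It averaged 16.4 ± 6.73 CPM in antibiotic and 11.0 ± 5.25 CPM in water libraries (SD, n = 12 each), with a log2 fold change of 0.60 that did not pass (SE 0.23, adjusted p = 0.122 by edgeR) and that was 0.81 without the pancreas-high libraries (adjusted p = 0.0214). Slc13a2 rose with antibiotics, to 62.5 ± 27.3 CPM, against 37.3 ± 17.5 CPM on water (log2 fold change 0.74, SE 0.21, adjusted p = 0.0391 by edgeR). For Slc13a2 no value without the pancreas-high libraries is given. In set MT the order of Slc13a2os means was 19.4 ± 4.53 CPM in Leptin-antibiotic, 13.6 ± 5.58 in Leptin-water, 13.3 ± 7.52 in Saline-antibiotic and 8.40 ± 3.62 in Saline-water libraries (SD, n = 6 each). The middle pair of that order did not differ beyond its spread.

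The remaining 6 genes had log2 fold changes between −0.26 and 0.05 with antibiotics. They were −0.26 (SE 0.17) for Hsf5, −0.16 (SE 0.09) for Sarm1, −0.14 (SE 0.06) for Chd2, −0.12 (SE 0.15) for Gpr17, −0.09 (SE 0.06) for Pcf11 and 0.05 (SE 0.24) for Nek10, with adjusted p between 0.158 and 0.931 by edgeR. For Nek10 the 95% interval ran from −0.41 to 0.52, so a change of moderate size in either direction was not detectable. Nek10 averaged 29.5 ± 5.74 CPM in Leptin-water, 24.3 ± 10.9 in Leptin-antibiotic, 12.8 ± 8.22 in Saline-antibiotic and 10.0 ± 5.42 in Saline-water libraries of set MT. Within each injection, those values differed by less than their SD between antibiotic and water.

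Within groups, most of the 8 protein-coding genes were higher and lower together from library to library, and Slc13a2os was not seen to follow them over all 39 libraries. The mean of each set and group was removed from log2 CPM (prior count 2), which takes out the mean leptin effect, and all 36 pairs were compared over 39 libraries. The spread that remains in the water libraries also entered the call that chose the genes, so these relations are not independent of the choice. Pearson's r was above 0 in 34 pairs, with a median of 0.464. In 22 pairs both Pearson's r and Spearman's rho passed an adjusted p of 0.05 in two-sided permutation tests, adjusted over the 36 pairs, with r between 0.393 and 0.807. The share of pairs of other genes that would pass was not counted, so the 22 are not shown to be particular to these genes. All 22 pairs had the same sign in both sets. They kept an unadjusted permutation p under 0.05 for r without the 2 libraries farthest from the median of 1 gene. That gene was the first of the pair in the order that opens the text, so libraries extreme for the other gene could stay in.

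The tightest pairs joined the kinase Nek10 to the receptor Gpr17 (r = 0.807, rho = 0.762), to Hsf5 (r = 0.806, rho = 0.797) and to Chd2 (r = 0.805, rho = 0.785). Each had an adjusted permutation p of 6e-05 for both measures, from the smallest p the 100000 shuffles can give, 1e-05. Without the 2 libraries farthest for Nek10, Saline-antibiotic 6 and Saline-water 5, r was 0.804 for Gpr17, 0.745 for Hsf5 and 0.780 for Chd2. Hsf5 and Chd2 were joined as closely (r = 0.787, rho = 0.791), and Chd2 took part in 7 of the 22 pairs. Pcf11 took part in 3, with Chd2 (r = 0.667, rho = 0.431), Nup210l (r = 0.436, rho = 0.488) and Hsf5 (r = 0.407, rho = 0.383). Sarm1 took part in 4 pairs, the strongest with Gpr17 (r = 0.573, rho = 0.578).

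The 2 sets were unequal in this. Within set M, 15 libraries, 19 pairs passed, and within set MT, 24 libraries, 10 pairs passed. The pair of Nek10 and Gpr17 had r = 0.712 in set M and 0.875 in set MT, and Nup210l with Chd2 had 0.819 in set M and 0.462 in set MT. Without the pancreas-high libraries 18 pairs passed.

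**Figure D3:**
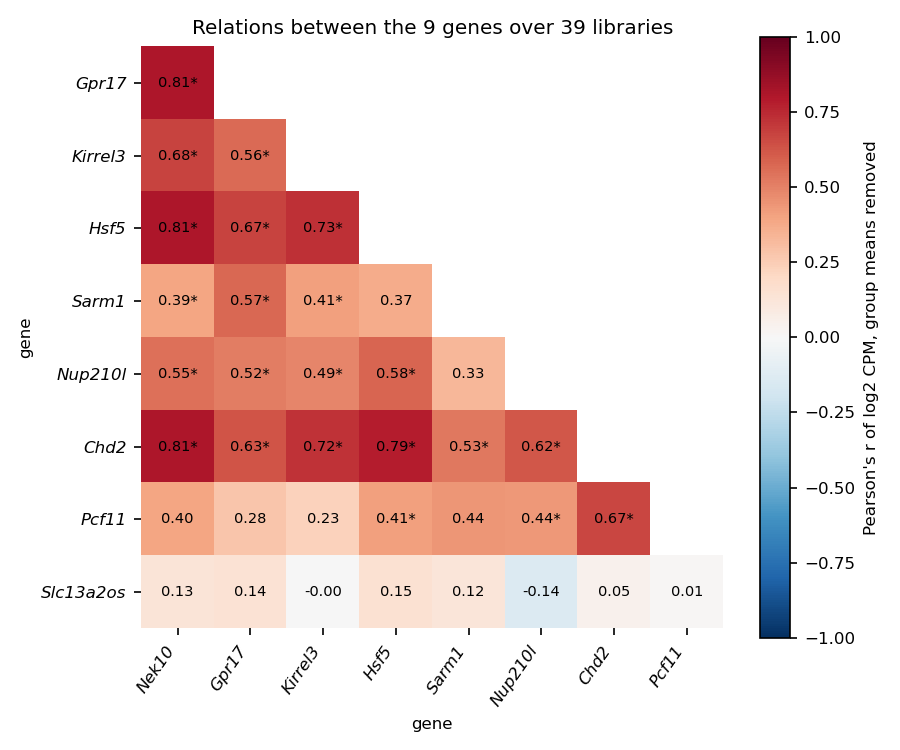
Pearson's r between each pair of the 9 genes over 39 libraries, from log2 CPM with the mean of each set and group removed. An asterisk marks the 22 pairs in which both r and rho passed an adjusted p of 0.05 in permutation tests; the row of Slc13a2os has none.

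Over the 39 libraries Slc13a2os passed with none of the other 8, its r with them lying between −0.138 and 0.153. Within set M alone its r ran from −0.071 (Kirrel3) to 0.544 (Gpr17) and 0.585 (Sarm1). Within set MT it ran from −0.282 (Nup210l) to 0.155 (Hsf5). No p-value is given for these pairs within a set. Slc13a2os moved with Slc13a2 (r = 0.829, rho = 0.860, permutation p = 1e-05 and 2e-05 over 39 libraries), which was 1 further relation tested. Without the 2 libraries farthest for Slc13a2os, r with Slc13a2 was 0.812, and within sets it was 0.778 in set M and 0.845 in set MT. On antibiotic, Slc13a2 had 91.1, 101, 102, 60.6, 80.1 and 42.5 CPM in Leptin-antibiotic libraries, against 24.5, 30.1, 56.0, 69.4, 30.5 and 62.1 CPM in Saline-antibiotic libraries. Of these Leptin-antibiotic libraries, 4 of 6 were above every Saline-antibiotic one, and the log2 fold change was 0.82 (SE 0.30, adjusted p = 0.175 by edgeR). The lowest Saline-antibiotic values were those of libraries 1, 2 and 5, which were high in pancreas markers. Leptin-antibiotic 3, at 102 CPM, was high in them as well. No value without the pancreas-high libraries is given for Slc13a2. Shared exonic bases and the unknown strand setting mean that part of each gene's count may come from the other, and their share was not measured.

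**Figure D4:**
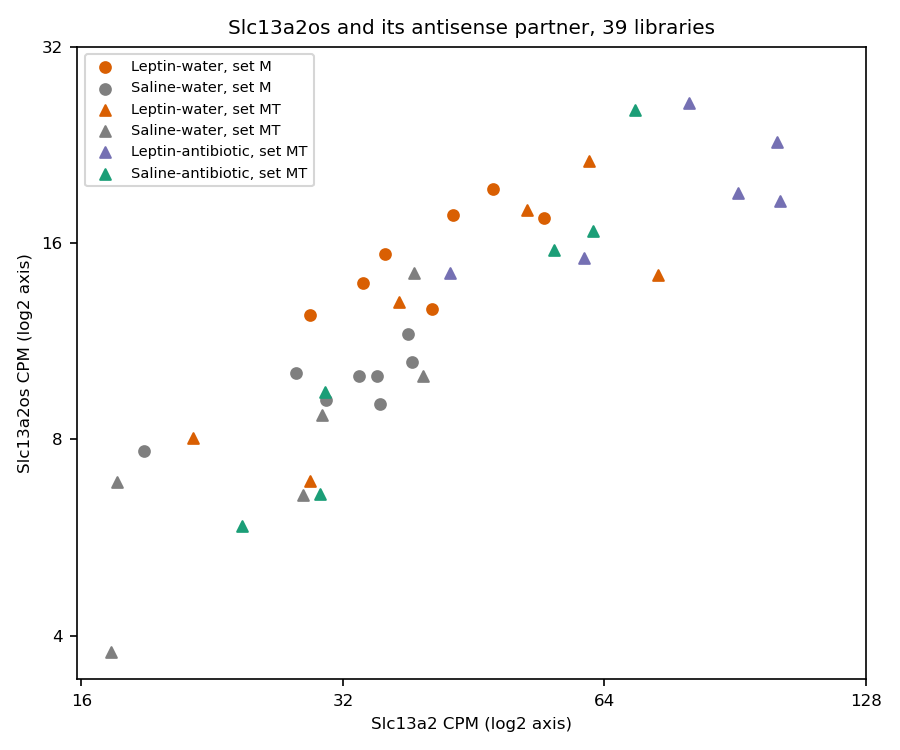
Slc13a2os against Slc13a2 in each of the 39 libraries, in TMM-scaled CPM on log2 axes, with circles for set M and triangles for set MT. Levels of the pair rise together, from 3.78 to 26.3 CPM for Slc13a2os, with the highest values in antibiotic libraries.

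Of 12574 measured and named genes, the one whose level was most like a given gene, by Spearman's rho over the 39 libraries with group means removed, was the giant muscle protein gene Ttn for 3 of the 9: Gpr17 (rho = 0.843), Nek10 (0.749) and Chd2 (0.720). It was Myom3, another sarcomere gene, for Kirrel3 (0.699), Smcr8 for Hsf5 (0.734), Atxn1 for Sarm1 (0.704) and Cdh24 for Nup210l (0.640). Pcf11 was most like Setd2 (0.813), the methyltransferase of histone H3 lysine 36, and Slc13a2os was most like Slc13a2 (0.860). These are the highest of 12574 values each, over libraries that share depth and composition, and are given as a description.

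Relatives of the 9 genes, from lists by family, had values on both sides of 0 on antibiotic, and no difference between them and the 9 genes was tested. Other NEK kinases had log2 fold changes above 0 in 4 of 9, other nucleoporins in 7 of 28 (median −0.12), other CHD remodellers in 4 of 9 and other cleavage and polyadenylation genes in 5 of 23. Other P2Y and leukotriene-type receptors were above 0 in 5 of 12, motile cilia genes in 2 of 8, nephrin-like adhesion genes in 0 of 7 and other heat shock factors in 1 of 5. NAD enzymes were above 0 in 7 of 16, other TIR adaptors in 3 of 5, and other SLC13 transporters in 3 of 3, with Slc13a1 at 0.22 (SE 0.20, adjusted p = 0.581 by edgeR). No gene of these lists was called with leptin on antibiotic, where 0.514% of all genes were called in either direction. Nek6 came closest, at 73.0 ± 8.57 CPM in Leptin-antibiotic libraries and 57.7 ± 6.14 CPM in Saline-antibiotic libraries (SD, n = 6 each; adjusted p = 0.0589 by edgeR). Targets of heat shock factor 1, which Hsf5 resembles in its DNA-binding domain, were above 0 in 12 of 15 (median 0.12), with Hspa8 at 0.24 (SE 0.13, adjusted p = 0.368). A list of 40 genes, made for splicing regulators that keep introns or poison exons, also held the noncoding nuclear RNAs Malat1 and Neat1. This list was above 0 in 9 (median −0.10). Malat1 and Neat1, shown as its most abundant members, were at −0.21 (SE 0.16) and −0.26 (SE 0.20).

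With antibiotics over both injections, 9 of 180 genes of these lists other than the 9 were called (5%), a share near the 6.45% of all genes, so the calls are given as values of single genes. Nek6 rose to 65.3 ± 10.7 CPM, against 48.2 ± 5.67 CPM on water (log2 fold change 0.44, adjusted p = 0.000122 by edgeR). The mitochondrial chaperones Hspd1 (0.33) and Hspe1 (0.32), the cochaperone Dnaja1 (0.31), the NAD kinase Nadk (0.16) and Slc13a2 rose as well. Cfap43 of motile cilia fell by 0.65 and the receptor gene Gpr55 fell by 0.57 on the log2 scale, and Scaf8, a reader of the polymerase tail, fell by 0.12. Of other nucleoporins 0 of 28 were called, and of nephrin-like genes 0 of 7.

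Neighbours on the chromosome were followed in the same fits. Slc46a1, the proton-coupled folate transporter, which lies 271 bases from Sarm1 and between it and Slc13a2os, had a log2 fold change of 0.01 with leptin on water and 0.42 on antibiotic (SE 0.13, adjusted p = 0.113 by edgeR). Slc4a7, 3475 bases before Nek10, had 0.21 on water and 0.19 on antibiotic. Rnf43 and Mtmr4 beside Hsf5 had 0.06 and 0.07 on water, Tpm3 and Rps27 beside Nup210l 0.00 and −0.09. Myo7b beside Gpr17 had 0.07 on water and 0.30 on antibiotic (adjusted p = 0.102). Vtn, 1337 bases from Sarm1 on the other side, had −0.82 on water and −0.96 on antibiotic (adjusted p = 0.295 by edgeR), and Ankrd42 beside Pcf11 had 0.02 on water and −0.58 on antibiotic (adjusted p = 0.0716). St3gal4 beside Kirrel3 had −0.09 on water and −0.31 on antibiotic (adjusted p = 0.351), and Rgma beside Chd2 had 0.15 on water and 0.02 on antibiotic (adjusted p = 0.965). No neighbour passed the test on antibiotic.

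Some cell type marker lists on water had opposite signs in the 2 sets and others the same sign. The stomach and Brunner gland list was at 5.42 ± 1.63 log2 CPM in Leptin-water and 6.50 ± 1.07 in Saline-water libraries of set M, and at 6.70 ± 0.48 in Leptin-water and 5.23 ± 0.84 in Saline-water libraries of set MT (SD, n = 7, 8, 6 and 6). The smooth muscle list was at 6.18 ± 0.39 in Leptin-water and 5.84 ± 0.22 in Saline-water libraries of set M, and at 5.74 ± 0.35 and 6.05 ± 0.18 in those of set MT. Enteric neuron and glia markers were at 1.28 ± 0.30 in Leptin-water and 0.92 ± 0.21 in Saline-water libraries of set M, and at 1.06 ± 0.39 and 1.37 ± 0.12 in those of set MT. Enterocyte markers were at 10.43 ± 0.13 in Leptin-water and 10.40 ± 0.12 in Saline-water libraries of set M, and at 10.43 ± 0.18 and 10.29 ± 0.18 in those of set MT. Lower in mean with leptin in both sets were fibroblast markers (5.46 ± 0.14 in Leptin-water and 5.55 ± 0.14 in Saline-water libraries of set M, 5.68 ± 0.16 and 5.81 ± 0.16 in those of set MT), stem and crypt markers (5.21 ± 0.11 and 5.31 ± 0.15 in set M, 5.30 ± 0.11 and 5.33 ± 0.26 in set MT) and enteroendocrine markers (2.92 ± 0.10 and 3.12 ± 0.13 in set M, 3.20 ± 0.22 and 3.21 ± 0.17 in set MT). The part of these cell types in the levels of the 9 genes was not tested.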

How the data were processed

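The 9 genes, the gene lists and the tests were chosen with earlier results of these data known. Strand-specific, ribosome-depleted total RNA libraries were made from duodenum, per the labels' protocols. Values are counts of reads by gene symbol in a table the authors deposited and describe as filtered. FastQC, HISAT2 and featureCounts, with edgeR 3.42.0 and the mm10 build, are listed in the submitters' processing notes. The filter, the annotation and the strand setting are not given in the sources used.

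The main test was the quasi-likelihood F test of edgeR 4.0.16 in R 4.3.3 on those counts, with TMM factors, filterByExpr and Benjamini-Hochberg adjustment over all genes tested, at 0.05. Standard errors are the absolute log2 fold change divided by √F, and 95% intervals follow from them. Leptin on water over both sets was fitted in 27 libraries with set as a term. The values of each set on water came from separate fits of the water libraries of that set alone. The comparisons with antibiotic libraries were fitted in the 24 libraries of set MT. Relations used Pearson's r and Spearman's rho with 100000 shuffles within set and group. Alternatives were other scalings, DESeq2 1.42.0, limma 3.58.1 (voom), no filter, a replicate block, a pancreas covariate, and leaving out libraries. The tests were tried on simulated counts with known changes. Whether replicate numbers pair the samples is not known, and the main fits took them as unpaired. Deviations of same-numbered libraries correlated at over 0.1 in 1 of 6 pairs on antibiotic (0.503 for replicate 5). On water they did so in 3 of 7 in set M and in 0 of 5 in set MT. Such correlations cannot decide whether the samples were paired. Besides the 9 genes, the text names by rule the most alike gene of each, called or most abundant genes of the fixed lists, chromosomal neighbours, Slc13a2 and the 2 genes at the edge of the call. Symbols were matched to GENCODE vM21 for 15996 of 16358 genes (97.8%). Counts of the 9 genes lay between 57 and 9732 per library.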

Additional observations from a re-analysis of the deposited data

Results flagged for a closer look

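In Saline-antibiotic 6, Nek10 stood at 29.6 CPM, whereas the nearest of the other 5 libraries of that group was at 9.61 CPM, a gap of 0.973 of the range of the group. Of 54 groups of values examined for such a gap (the 9 genes in each set and group), this was the 1 found. The limit used flags about 1 in 20 groups by chance, a larger share than 1 in 54. The same library was the highest of its group for Gpr17 (20.3 CPM), Hsf5 (5.82 CPM), Kirrel3 (3.74 CPM) and Chd2 (133 CPM), and the lowest for Sarm1 (2.27 CPM). Its mean of pancreas markers was −0.39 log2 CPM, so it was not among the pancreas-high libraries. No cause was tested.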

How the results depend on the processing

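With leptin on antibiotic, 84 genes were called. The count was 51 with upper quartile scaling, 443 with DESeq2, 51 with the pancreas marker level as a covariate, 0 without the pancreas-high libraries (1331 at an unadjusted p under 0.05) and 9 to 182 leaving out 1 library (lowest without Leptin-antibiotic 3, highest without Saline-antibiotic 6). Of the 9 genes DESeq2 called 1, Gpr17, and leaving out 1 library called 0 to 3. Adjusted p from DESeq2 is not defined for Kirrel3, Hsf5, Sarm1 and Nup210l here. With antibiotics over both injections, voom called 2201 genes against 1054, leaving out 1 library 575 to 1226, and upper quartile scaling 413 higher and 702 lower, against 692 higher and 362 lower. Of the 9 genes, 0 were called with the covariate and 0 to 2 leaving out 1 library; Chd2 was called lower only without Leptin-antibiotic 1 (adjusted p = 0.0244 by edgeR). With leptin on water, 51 genes were called, against 173 with DESeq2, 128 with voom, 33 without the pancreas-high libraries, and 10 (without Leptin-water 2) to 147 (without Saline-water 10) leaving out 1 library, with 3 to 9 of the 9 genes among them. With the replicate number as a block, 1 gene was called on antibiotic and 0 on water. On water 1675 genes had an unadjusted p under 0.05 by edgeR, all 9 genes among them, and 0 of the 9 were called. Because the water libraries chose the 9 genes, their counts on water in all these settings are a description and not a test. It is not known whether the replicate numbers pair the samples. No paired analysis was possible for the effect of antibiotics because those groups share no replicate numbers with the water groups of set MT. Of the relations, 10 of 36 pairs passed within set MT, against 22 over both sets. No fold change of the 9 genes that had been called turned round under any alternative. The causes of these differences were not tested.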
